A study of Drosophila melanogaster with 12 samples.

Results

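The genes described here encode the core proteins of the spliceosome, and they were chosen by name: a row of the linear RNA table was taken if its gene name matched the pattern of an Sm, LSm, Prp, SF3a, SF3b, U1-specific, U2AF or U4/U6 protein, or was snf or U2A. This gave 30 of the 5954 genes listed, with 39 of 10162 transcripts. Of the 30, smg and LSm1 are not splicing genes, LSm1 being a gene of mRNA decay as described below. The pattern ignores case, so the symbol smg, the gene of the translational repressor Smaug, was taken as SmG; the Sm protein G is listed as SNRPG. The 30 are given as the rule has them, and counts without smg are added, which still hold LSm1. The tables compare stage 14 follicles, the mature egg chambers of the ovary, at day 12 with those at day 2. All came from Oregon R, a wild-type laboratory stock of Drosophila melanogaster, with no allele or agent named in either group. Each group had 3 libraries of linear RNA, from ovaries extracted with Trizol, and 3 of circular RNA that are not analysed here. The labels do not say what the days count from, how many females or follicles went into a library, or how the follicles were kept.

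The core spliceosome is the machine that removes introns from pre-mRNA. Its small nuclear ribonucleoproteins (snRNPs) each hold a U-series small nuclear RNA, a ring of Sm or LSm proteins, and proteins of their own. U1 binds the start of the intron and U2 its branch point, with the heterodimer U2AF marking the end of the intron; the tri-snRNP of U4, U6 and U5 then joins, and its rearrangement forms the catalytic centre. A mature fly oocyte is largely silent in transcription, so the messages described here are those it stores for the egg and early embryo, together with messages of the surrounding follicle cells.

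Each value is the authors' mean of 3 libraries, so no spread between libraries can be given, and the depth of the libraries is unknown. The p-values are those in the authors' deposited table. The labels number biological replicates without saying whether they came from separate flies. The p-values thus rest only on the spread between these samples, and whether it covers the spread between flies is unknown. As for the tissue label, all 8 oocyte markers were listed, among them osk, nos and CycB, and their values summed to 4514 at day 12 and 4006 at day 2. Of 10 markers of follicle cells only 3 were listed, Ilp8, ttk and Cp15, with sums of 130 at day 12 and 332 at day 2; Cp15, a chorion protein gene, was at 20.8 and 254, while Ilp8 and ttk had the higher mean at day 12. No marker on the lists for muscle, fat body, hemocytes or neurons was listed. In whole follicles, fewer cells of a type and less RNA per cell cannot be told apart, and the part of the lower follicle cell sum in the results below was not tested.

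Core spliceosome messages stood at nearly the same level on both days. Summed over the 30 genes, they made up 0.504% of all listed abundance at day 12 and 0.491% at day 2. The largest difference of any gene was that of Sf3b1, whose day 12 mean was 0.703 times its day 2 mean. For 17 of the 30 the log2 change, day 12 over day 2, was under 0.1 in size. The same count was not made over all genes, so the 17 is not read as a trait of the group. No gene of the group reached a 2-fold difference, against 2.64% of all genes, a share at which 30 genes may well hold none. The median log2 change was 0.06 over the 30 genes and 0.04 over all genes, and the middle 50% of all genes spanned -0.13 to 0.14. Of the 30, 20 lay within that span, 5 above it and 5 below it.

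**Figure D1:**
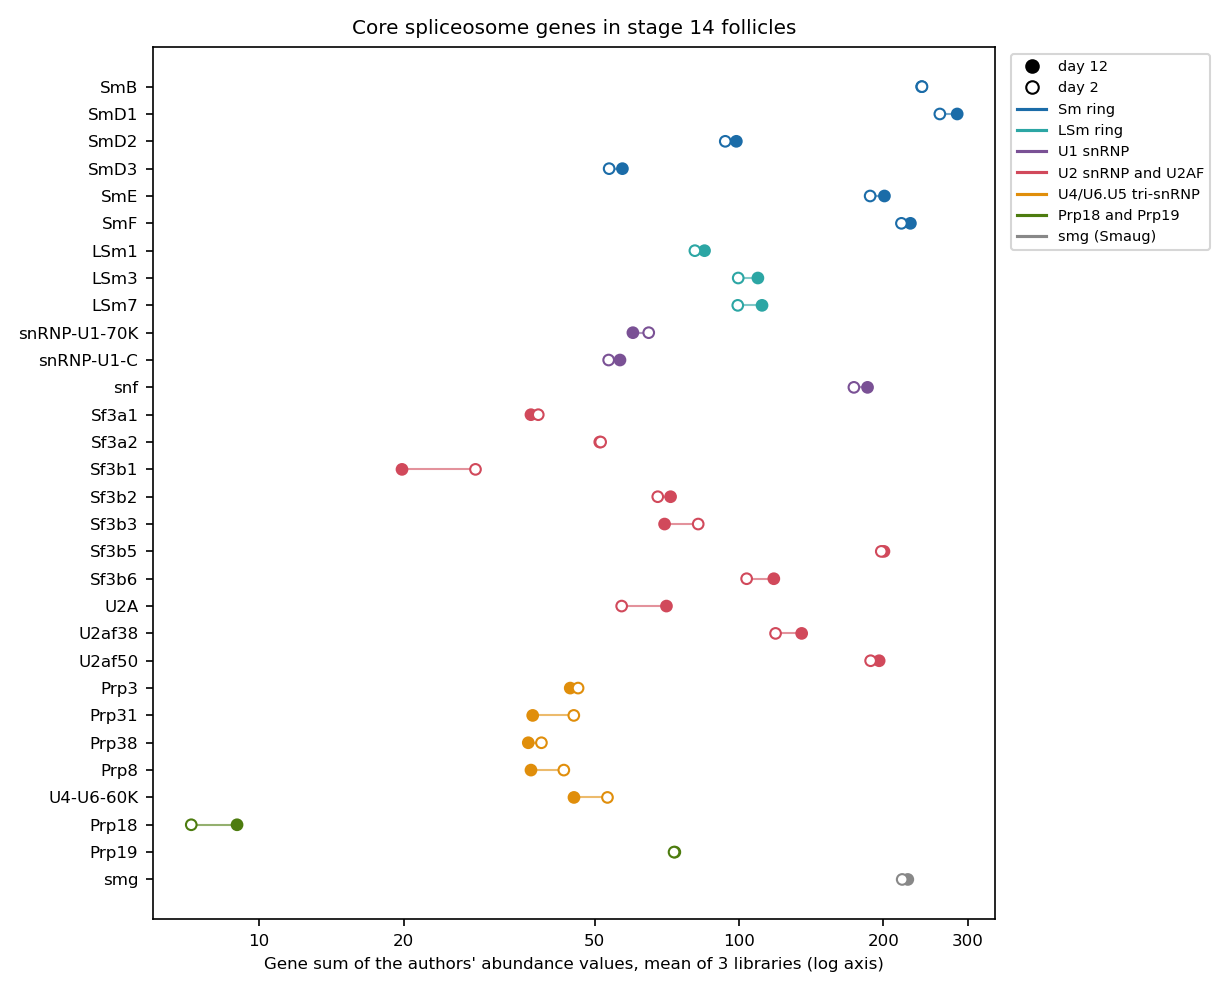
Abundance of each of the 30 genes at day 12 (filled) and day 2 (open), as the sum of the authors' values over its listed transcripts, on a log axis, coloured by role. Each point is a mean of 3 libraries with no spread available. The 2 points of a gene lie close together for most genes, and Sf3b1 (19.8 and 28.2) stands furthest apart.

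The mean was higher at day 12 for 19 of 30 genes, or 18 of 29 without smg, against 58.5% of all genes. With only LSm1 left out it was also 18 of 29. Centred on the median of all genes, the number was 16. At an adjusted p under 0.05, 0 of 30 were called in the authors' deposited table, against 0.218% of all genes by their most abundant transcript. By any listed transcript the count was again 0, against 0.302%, and at an adjusted p under 0.1 it was 0, against 1.65%. At an unadjusted p under 0.05 there were 4, SmB, Sf3b1, Sf3b2 and Sf3b6, which is 13.3% of the 30 against 22.5% of all genes. Sf3b2 and Sf3b6 had the higher mean at day 12 and Sf3b1 the lower, while the means of SmB were nearly equal; over all genes, 13.5% had such a p with a higher and 9.07% with a lower mean at day 12. By any listed transcript there were 5, against 25.3% of all genes, the fifth being U2A. At an unadjusted p under 0.01 there were 2, Sf3b1 and SmB, against 8.01%, and with a log2 change of at least 0.05 in size as well as p under 0.05 there were 3, against 21.4%. The sources used here do not name the test behind these p-values, so "called" below means an adjusted p under 0.05 there.

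The Sm proteins form the ring that closes around the Sm site of U1, U2, U4 and U5 RNA, one copy of each protein per ring. Their means differed little between days. SmD1 stood at 285 at day 12 and 262 at day 2, with a log2 change of 0.12. SmF was at 228 and 218 at those days, and SmE at 201 and 188. The other members were lower in level: SmD2 had 98.7 at day 12 and 93.6 at day 2, and SmD3 had 57.2 and 53.6. These 5 genes had log2 changes of 0.06 to 0.12, close to the median of 0.08 for genes with transcripts of up to 1000 nt. SNRPG, the Sm protein G that the rule misses, had the highest value of the Sm genes with 317 at day 12 and 309 at day 2 (log2 change 0.04). Across the 7 Sm genes the highest value was 5.54 times the lowest at day 12 and 5.77 times at day 2, although the proteins enter the ring in equal number. That ratio compares genes, and holds only if the authors' values are per transcript length, which the sources used here do not state.

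SmB had a low p with nearly equal means. Its single listed transcript was at 240.2 at day 12 and 240.6 at day 2, a log2 change of -0.0024, and yet the authors' deposited table gives p = 0.0077 unadjusted and p = 0.163 adjusted. Such a pairing was uncommon: of the 1629 transcripts at an unadjusted p under 0.05, 27 had a change under 0.02 in size. No direction is therefore read from the p of SmB.

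The LSm proteins form the related ring on the end of U6 RNA. LSm1 is the exception, since it has no place in the ring on U6 RNA and is found only in the cytoplasmic ring that acts in decapping and mRNA decay. LSm3 had 109 at day 12 and 99.6 at day 2, and LSm7 had 112 and 99.4, with log2 changes of 0.14 and 0.17. LSm1 had 84.8 at day 12 and 80.9 at day 2, a log2 change of 0.07. All 3 were slightly higher at day 12, as were 69.9% of all genes with transcripts of up to 1000 nt. Each p of the 3 exceeded 0.05 before adjustment in the authors' deposited table. LSm-4, listed with a hyphen and so outside the rule, was at 32.3 and 30.8.

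Of the U1 proteins, snf carries out in the fly the work of both the U1 protein A and the U2 protein B″ of mammals and also acts in sex determination. It had 185 at day 12 and 174 at day 2. snRNP-U1-C, which steadies the pairing of U1 with the start of the intron, had 56.5 at day 12 and 53.5 at day 2. snRNP-U1-70K, which binds U1 RNA and contacts SR proteins, had the opposite sign with 60.1 and 64.8 at those days. The log2 changes were 0.09 for snf, 0.08 for snRNP-U1-C and -0.11 for snRNP-U1-70K, and each p exceeded 0.05 before adjustment in the authors' deposited table.

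The U2 proteins held both the largest negative difference and some of the larger positive ones. SF3b clamps the branch point, and its subunit Sf3b1 is the large scaffold that grips the branch point adenosine. Sf3b1 was at 19.8 at day 12 and 28.2 at day 2, a log2 change of -0.51, for which the authors' deposited table gives p = 0.00301 unadjusted and p = 0.129 adjusted. It was not called, and 426 of all 5954 genes had a larger change in either direction. Sf3b1 lies on the plus strand of 2L from 568340 to 572907, in BDGP6 (dm6) coordinates. Its listed transcript has 3 exons and 4155 nt, and no annotated gene overlaps it.

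Of the other SF3b subunits, Sf3b2, Sf3b5 and Sf3b6 had the higher mean at day 12, Sf3b5 no longer so after centring on the median of all genes, and Sf3b3 had the lower. Sf3b6, the small subunit that lies next to the branch point, had 118 at day 12 and 104 at day 2, with a log2 change of 0.19 (unadjusted p = 0.010004, adjusted p = 0.179 in the authors' deposited table). Sf3b2, which binds RNA near the branch point, had 72.01 at day 12 and 67.7 at day 2, with a log2 change of 0.09 (unadjusted p = 0.0365, adjusted p = 0.272 in the authors' deposited table). Sf3b5, a very small subunit, was nearly equal at 200.5 and 197.9. Sf3b3, a large scaffold subunit of beta-propellers, had 70.0 at day 12 and 82.2 at day 2. Its log2 change of -0.23 came with p = 0.950 in the authors' deposited table before adjustment. Of the 718 transcripts there with a p over 0.9, 393 had a change of at least 0.2 in size. The non-coding gene lncRNA:CR45184 covers 52.1% of the span of Sf3b3 on the same strand and was at 0.0595 at day 12 and 18.4 at day 2; its part in the value of Sf3b3 was not tested. Summed, the 5 SF3b genes were at 480.5 on day 12 and 479.8 on day 2.

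The SF3b values thus differed in sign while their sums were nearly equal. The highest of the 5 was 10.1 times the lowest at day 12 and 7.01 times at day 2, in both cases Sf3b5 over Sf3b1, again on the assumption of values per length. The SF3a subunits, which link SF3b to the rest of U2, had nearly equal values: Sf3a1 summed to 36.9 at day 12 and 38.2 at day 2, and Sf3a2 was at 51.3 and 51.5. The third SF3a subunit is listed as noi, outside the rule, and was at 40.8 and 40.9.

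U2A, the leucine-rich repeat protein that binds U2 RNA together with snf, had one of the larger positive differences. Its gene sum was 70.6 at day 12 and 56.9 at day 2, a log2 change of 0.31, above 95.7% of all genes. The 2 listed transcripts disagreed in sign. The annotated one was at 63.5 at day 12 and 48.7 at day 2 (p = 0.260 unadjusted in the authors' deposited table). The one assembled by the authors was at 7.10 and 8.29, and the authors' deposited table gives it p = 0.0120 unadjusted and p = 0.184 adjusted. The larger difference thus had the higher p. The gene has 1 exon, with a transcript just over 1000 nt long.

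U2AF recognises the end of the intron, with the small subunit on the terminal AG and the large one on the pyrimidine tract. U2af38, the small subunit, was at 135 at day 12 and 119 at day 2, a log2 change of 0.18. U2af50, the large subunit, was at 196 and 188, a log2 change of 0.06. Neither p was under 0.05 before adjustment in the authors' deposited table.

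**Figure D2:**
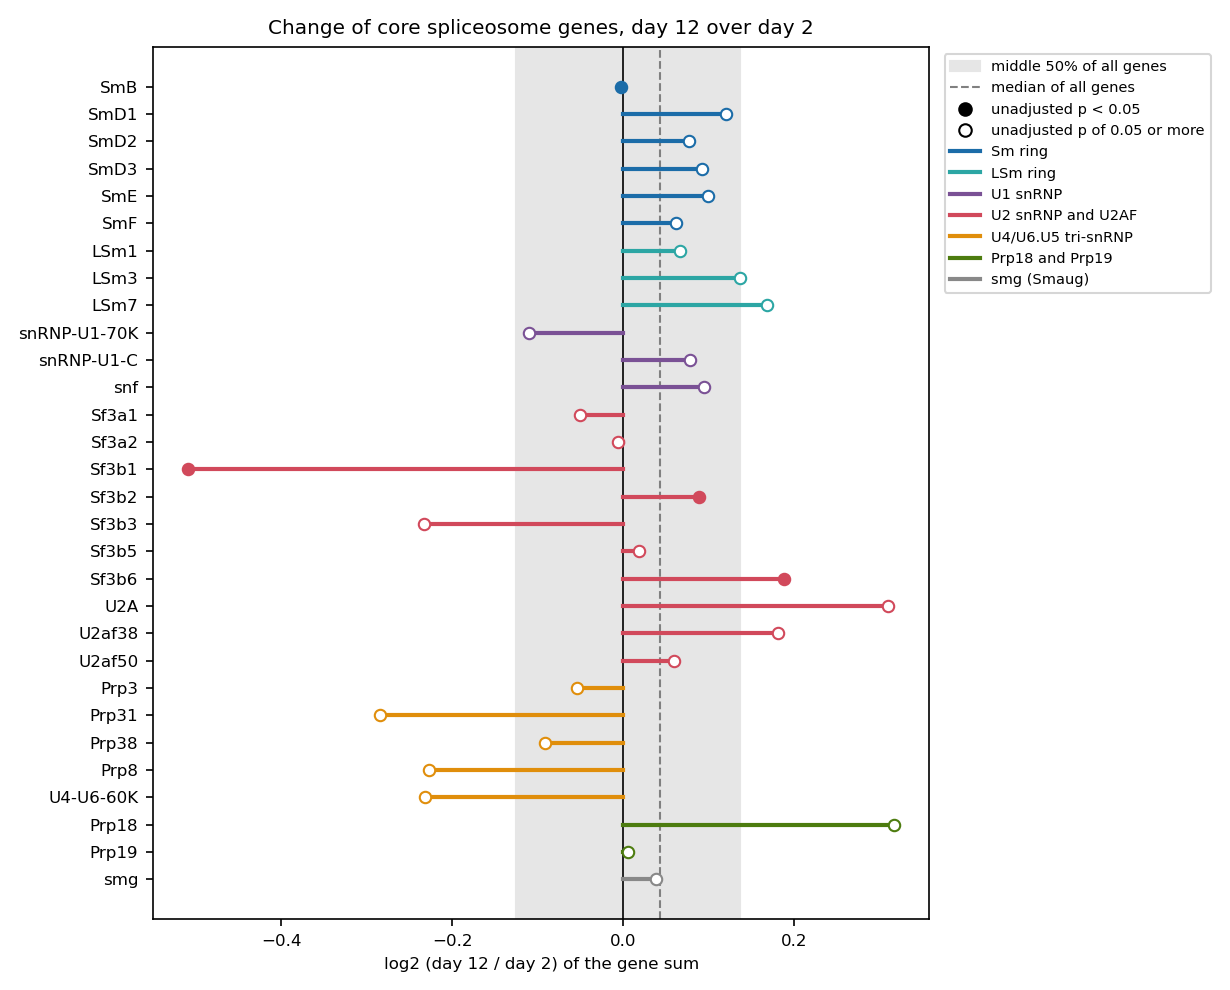
The log2 ratio of day 12 over day 2 for each gene, coloured by role. Filled points had an unadjusted p under 0.05 for the most abundant transcript in the authors' deposited table. The grey band holds the middle 50% of all genes (-0.13 to 0.14) and the dashed line their median (0.04). All 5 genes grouped as tri-snRNP, Prp38 among them, lie left of 0, and Sf3b1 at -0.51 is the lowest.

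All 5 genes grouped here as tri-snRNP had the lower mean at day 12, against 2472 of all 5954 genes. Their median log2 change was -0.23. Prp38 is counted among them, although it joins at the activation of the spliceosome. In the authors' deposited table none of the 5 p-values was under 0.05 before adjustment. Prp8, the largest and most conserved spliceosomal protein, which holds the catalytic centre, was at 36.9 at day 12 and 43.1 at day 2 (log2 change -0.23, unadjusted p = 0.545 there). Prp31, which bridges U4/U6 and U5, was at 37.2 at day 12 and 45.3 at day 2 (log2 change -0.28, unadjusted p = 0.111 in the authors' deposited table). U4-U6-60K, the fly counterpart of Prp4 and a partner of Prp3, was at 45.3 and 53.2, with a log2 change of -0.23.

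The remaining pair differed less. Prp3 had 44.5 at day 12 and 46.2 at day 2, and Prp38, which joins at the activation of the spliceosome, had 36.4 and 38.8. Summed, the 5 genes of this group stood at 200.2 at day 12 and 226.6 at day 2. Centring on the median of all genes and scaling to equal totals both lower every log2 change, and each of the 5 has 1 listed transcript. These alternatives could therefore not turn a negative sign, and nothing is read from its staying the same.

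Further tri-snRNP proteins in the table had the same sign, with one exception. Prp6, listed as CG6841, was at 32.5 at day 12 and 42.5 at day 2 (log2 change -0.39). The helicase Brr2, which unwinds U4 from U6 and is listed as l(3)72Ab, was at 22.05 and 28.1. CG4849, which RefSeq gives the synonym of the U5 GTPase EFTUD2, summed to 17.6 and 22.7. Dim1, the small thioredoxin-like protein of U5, went the other way with 65.6 at day 12 and 60.2 at day 2. Of these 9 genes, 8 had the lower mean at day 12, against 2472 of all 5954 genes and 770 of the 1281 with transcripts over 3000 nt. None of the 9 had an unadjusted p under 0.05 by its most abundant transcript. Of the 2 transcripts of CG6841, the most abundant was nearly equal, at 20.7 at day 12 and 21.2 at day 2. The other had p = 0.00493 unadjusted in the authors' deposited table. The choice of the added 4 was made with the values known, so the count describes them and supports nothing.

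Prp18 and Prp19 act late. Prp18, which helps the second catalytic step, had the lowest value of the 30, with 9.00 at day 12 and 7.22 at day 2 (log2 change 0.32, unadjusted p = 0.332 in the authors' deposited table). Its log2 change was the largest positive one by gene sums, but that of U2A was larger by the most abundant transcript and by annotated transcripts (0.38 against 0.32), and with a pseudocount of 1 (0.31 against 0.28). Prp19, the ubiquitin ligase that gives its name to a complex of the activated spliceosome, was at 73.5 and 73.2. Its log2 change of 0.0055 turned to -0.04 on centring and to -0.0075 on scaling to equal totals.

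Transcript length went along with these differences. Among the 30 genes, those with transcripts of up to 1000 nt had a median log2 change of 0.09, with 12 of 14 higher at day 12. Above that and up to 2000 nt the median was 0.03, with 5 of 8 higher. From there to 3000 nt it was -0.05, with 1 of 4 higher, and over 3000 nt it was -0.23, with 1 of 4 higher, that one being smg. All genes of the table showed a slope of the same sign but smaller: their medians in the 4 classes were 0.08, 0.07, 0.04 and -0.08. In those classes 69.9%, 66.2%, 57.6% and 39.9% of all genes were higher at day 12. Across the 30 genes Spearman's correlation of length with log2 change was -0.55, and -0.56 without smg; across 5528 genes with a length it was -0.20. These are correlations across genes that share the same libraries, and genes are not independent replicates.

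Role and length went together: Sm and LSm genes are short (467 to 778 nt) and genes of the tri-snRNP group long (1196 to 7442 nt). Set against all genes of its own length class, Sf3b1 lay above 6.17% of them, Prp31 above 6.74%, U4-U6-60K above 14.8%, Prp8 above 29.2% and Sf3b3 above 28.6%. Prp18 lay above 96.1% and U2A above 96.0% of theirs. The part of length in the difference between roles was not tested.

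**Figure D3:**
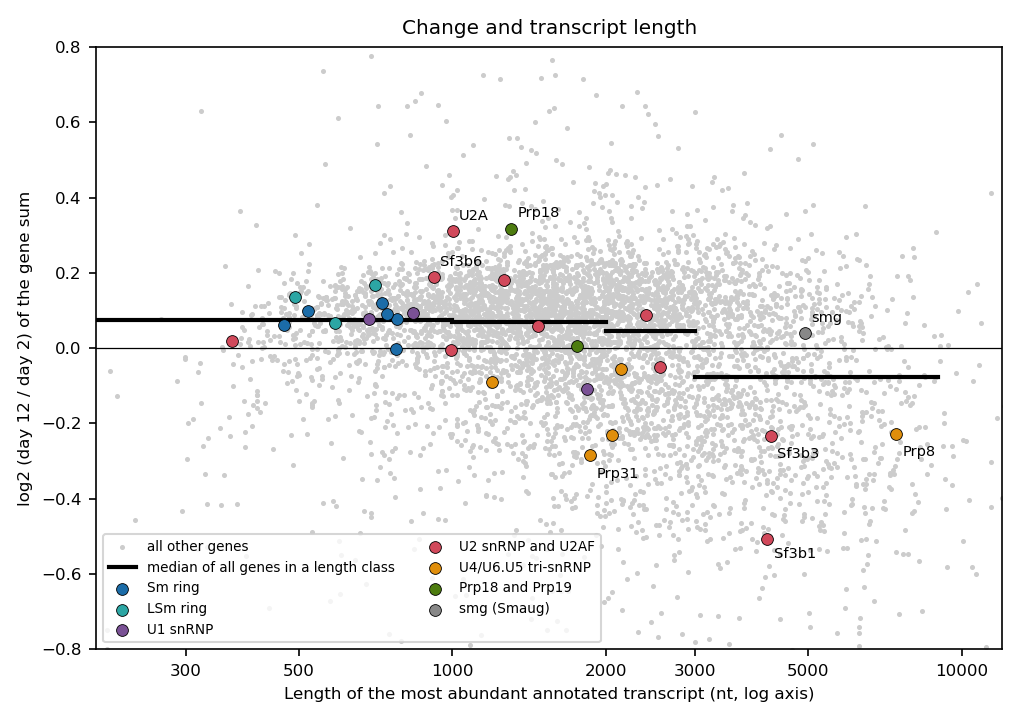
Change against the length of the most abundant annotated transcript, on a log axis, for the 30 genes (coloured by role) and all others (grey). Black bars are the medians of all genes in 4 length classes, from 0.08 for the shortest to -0.08 for the longest; 200 of 5528 genes lie outside the frame. Short Sm and LSm genes sit near the first bar, and Prp8, Sf3b3 and Sf3b1 lie below the last.

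Within genes, splicing messages kept their main form. Of the 30 genes, 24 had 1 listed transcript and 6 had several, and no transcript with a mean of at least 5 differed 2-fold. SmD3 kept its proportions, with the annotated transcript at 59.7% of the gene at day 12 and 60.1% at day 2. For LSm7 the main transcript made up 92.8% at day 12 and 92.3% at day 2. For SmE the annotated transcript was at 201 at day 12 and 181 at day 2, while an assembled one stood at 0 in the day 12 column and at 6.33 in that of day 2 (p = 0.238 unadjusted in the authors' deposited table).

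Sf3a1 was the splicing gene with the most visible exchange between minor forms. One assembled transcript made up 15.1% of the gene at day 12 and 3.93% at day 2, at 5.58 and 1.501. Another made up 11.5% at day 12 and 18.6% at day 2, at 4.24 and 7.08. The authors' deposited table gives the first p = 0.872 and the other p = 0.110 before adjustment, and the annotated transcript was at 27.0 and 29.6. For smg, 4 transcripts were listed; the sum was 225 at day 12 and 219 at day 2, and the assembled transcript that led on both days was at 102 and 114.8. The log2 change of smg was 0.04 by the sum and -0.17 by that transcript.

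**Figure D4:**
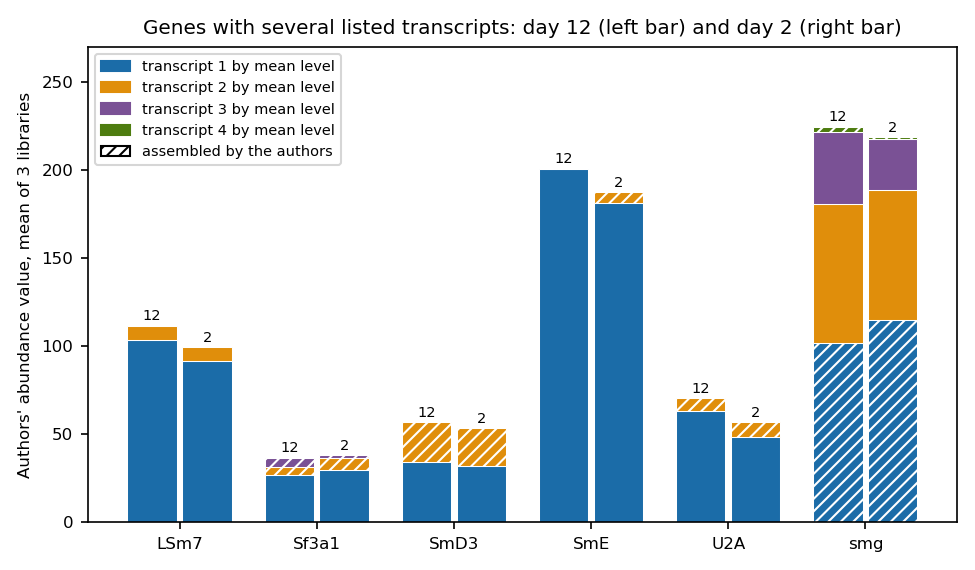
Abundance of each listed transcript for the 6 genes with several, stacked, with day 12 as the left and day 2 as the right bar of each pair; hatched parts were assembled by the authors. The sums differ little between bars (for smg 225 at day 12 and 219 at day 2), and which of the 2 assembled parts of Sf3a1 is the larger differs between days.

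Some of the genes lack introns, a feature the rule did not use. By the most abundant annotated transcript, 9 of the 30 had a single exon and so no intron: SmE, SmF, snRNP-U1-C, Sf3a2, Sf3b5, U2A, Prp38, U4-U6-60K and Prp18. The share among the protein-coding genes with an annotated transcript was 9.61%. Among transcripts of up to 1000 nt, 5 of 14 in the group had a single exon, against 17.1% of protein-coding genes. The median log2 change was 0.06 both for the 9 genes without an intron and for the 20 genes with introns other than smg. Prp8, at 14 exons, and Sf3b3, at 12, have the most.

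The genes are spread over the genome, with 7 on 2L, 7 on 2R, 8 on 3L, 6 on 3R and 2 on X. Prp8, SmD3 and SmF are near neighbours on 2R, with gaps of 5732 and 13840 bp. Sf3b3 and Prp8 hold other RNA genes in the annotation: 9 small nucleolar RNA genes lie within the bounds of Sf3b3, and a scaRNA named for U2 lies within those of Prp8. Values of these embedded genes were not used here.

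Overlap limits the certainty of several values. Of the 30 genes, 15 overlap a protein-coding gene of the opposite strand. The sources used here do not say whether the counting used strand, so reads of the shared stretch may not have been told apart. That stretch ranged from 1 bp for U2A and 6 bp for Prp8, too short to matter much, to 56.0% of the span of Prp19 and the whole of SmD3 and SmF. SmD3 lies wholly within the bounds of Oda, an antizyme gene of the opposite strand that summed to 644 at day 12 and 525 at day 2. SmF lies wholly within both CG33964, at 12.8 at day 12 and 9.81 at day 2, and CG13175, at 0.361 and 5.50, on the opposite strand. SmE and LSm3 lie wholly within longer genes of the same strand, CG7102 and CG33108, so that their values rest on how reads were shared. Sf3b1, SmB, SmD1, snf, U2af50, Sf3b5, Sf3b6, Prp38, U4-U6-60K, both U1-specific genes and smg overlap no annotated gene.

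No gene of the other splicing lists was called, against 0.218% of all genes, a share at which lists of this size would seldom hold one. Of these genes only CG12343 and btz, the latter at low values, had a larger change in size than Sf3b1. The list named for the Prp19 complex and other catalytic-stage factors had 20 measured genes. Of these, 5 had a higher sum at day 12, against 58.5% of all genes, and 15 a lower one. Their median log2 change was -0.15. The list is broader than its name. It also holds noi, Prp6, Brr2, CG4849 and Dim1, described above with SF3a or the tri-snRNP. Acn is shared with the exon junction complex list. Among these shared genes only Dim1 had the higher sum, so the lower count partly repeats genes described elsewhere here. At an unadjusted p under 0.05, 1 gene of the list, BCAS2, was higher and 4 were lower, against 13.5% and 9.07% of all genes. The largest change of the list was that of CG12343, at 82.5 at day 12 and 54.3 at day 2 (log2 change 0.60, p = 0.567 unadjusted in the authors' deposited table). hfp, the fly relative of the splicing factor PUF60, was at 19.2 at day 12 and 27.2 at day 2 (unadjusted p = 0.00211 in the authors' deposited table). crn, the crooked neck protein of the Prp19 complex, was at 9.10 and 11.8 (unadjusted p = 0.00238 there). The median length of this list was 2391 nt, longer than that of the 30 genes at 1098.5 nt.

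Of 12 measured genes of snRNP assembly and the SMN complex, 8 had the higher sum at day 12, against 58.5% of all genes, and La, Cbp80, rig and coil had the lower. The median log2 change was 0.10, and 3 genes were higher and 0 lower at an unadjusted p under 0.05, against 13.5% and 9.07% of all genes. Tgs1, which adds the trimethylguanosine cap to snRNAs, was at 39.4 at day 12 and 33.7 at day 2 (unadjusted p = 0.0073 in the authors' deposited table). Gem2, the SMN partner that gathers the Sm proteins, was at 50.9 and 43.9 (unadjusted p = 0.0208 there). Smn, which loads the Sm ring onto snRNA, was at 174.0 at day 12 and 160.0 at day 2.

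The exon junction complex and the SR proteins were mixed. Of 6 measured genes of the exon junction complex, 1 was lower and 1 higher at an unadjusted p under 0.05: tsu, the fly Y14, at 102 at day 12 and 139 at day 2 (p = 0.00259), and btz at 1.89 and 1.09 (p = 0.0279 in the authors' deposited table). Of 8 SR and SR-like genes, 3 had a higher sum at day 12, against 58.5% of all genes, and 5 a lower one, with a median log2 change of -0.05. Those with the lowest p were Rsf1, at 67.8 and 60.5 (p = 0.0126), and SF2, at 215 and 194 (p = 0.0206 in the authors' deposited table), both with the higher mean at day 12. The background for such counts is the 22.5% of all genes at an unadjusted p under 0.05 given above.

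Of 9 components found under another name, which the rule misses, 3 had the higher sum at day 12, against 58.5% of all genes, and 6 the lower, with a median log2 change of -0.22, and by the most abundant transcript no p was under 0.05 before adjustment in the authors' deposited table. Besides those above, Prp5, listed as CG6227, was at 10.8 at day 12 and 14.7 at day 2, and Prp39, listed as CG1646, at 16.03 and 18.6. Prp16, listed as l(1)G0007, had the higher sum at day 12 with 6.85 and 5.19, but not by its most abundant transcript. With these 9 added and smg left out, 21 of 38 genes were higher at day 12 and the median log2 change was 0.03.

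**Figure D5:**
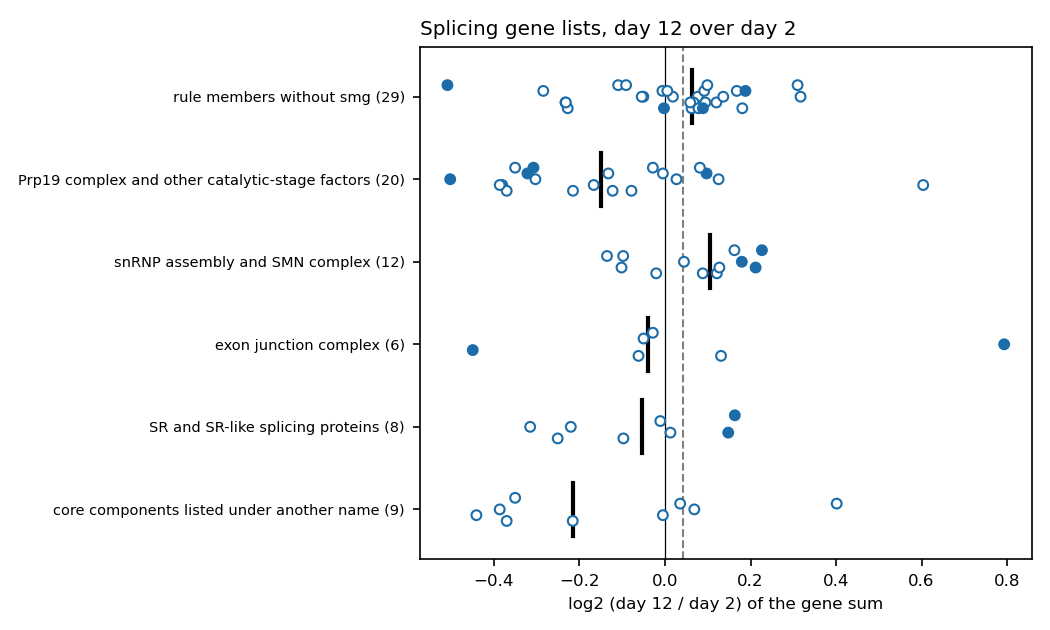
The log2 ratio of day 12 over day 2 for the genes of the rule without smg and for the other splicing lists. Each point is a gene, a black bar the list's median, the dashed line the median of all genes (0.04), and filled points had an unadjusted p under 0.05. Medians run from -0.22 for components under another name to 0.10 for snRNP assembly; Acn and 4 core genes stand in more than one list.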

How the data were processed

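Linear RNA of stage 14 follicles was measured in 3 libraries at day 12 and 3 at day 2, grouped by title. The submitters' processing notes name dm6 and the tools DESeq2, HISAT2, STAR and StringTie, with roles and versions not given in the sources used here. Deposited by the authors were signal values, the abundance of each transcript as 1 value per day under a header naming 3 libraries, read as a mean because 3 times each value is whole at 6 decimals; FPKM or TPM is not stated. The p-values the authors deposited come from an unnamed test. The adjusted ones equal a Benjamini-Hochberg adjustment over all listed transcripts (recomputed, tested on simulated data).

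Values were summed over the listed transcripts of each gene and the log2 ratio taken without a pseudocount, with Python 3.11.15 and pandas 2.3.3. A gene's p is that of its most abundant transcript over both days. No filter on low values was applied. Positions, lengths and exons come from Ensembl release 115 of BDGP6, whose coordinates are those of dm6; a length was found for 5528 of 5954 genes and all 30 genes of the rule. The circRNA table names no host gene and was not used here.

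The genes and lists were chosen with earlier results of these data known. Named were members with any transcript at an unadjusted p under 0.05, the 6 highest, the 6 lowest and the 6 largest changes, any transcript of mean 5 or more that differed 2-fold, and the 2 lowest p of each other list; the other members are given by role. Alternatives were the most abundant or annotated transcripts, centring, scaling, a minimum mean of 10, single-transcript genes, a pseudocount of 1, other thresholds and other member sets.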

Additional observations from a re-analysis of the deposited data

How the results depend on the processing

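The number of genes with a higher mean at day 12 was 19 of 30. As a share it was lowest when centred on the median of all genes, at 16 of 30, against 50% of all genes so centred. It was 14 of 24 among genes with 1 listed transcript and 21 of 38 with components under another name. In every alternative run the share stayed within 1.5 times that of the main run. The median log2 change, 0.0606, was 0.0175 when centred on the median of all genes, 0.0476 with equal totals, 0.0388 over genes with 1 listed transcript and 0.0270 with the components under another name added and smg left out; leaving out smg, adding those components and the threshold on size were chosen after seeing the data. No gene was called at an adjusted p under 0.1 or by any listed transcript. The 4 genes at an unadjusted p under 0.05 became 2 at a p under 0.01, 5 by any listed transcript and 3 with a change of at least 0.05 in size. The sign turned on centring for Sf3b5, Prp19 and smg, on equal totals for Prp19, and by the most abundant transcript for smg. Leaving out each replicate was not run, since the table used gives 1 mean per day. No paired analysis was possible because the columns hold 1 mean per day and carry no replicate numbers. Depth is unknown, which limits what low values such as those of Prp18 can show.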

Other observations

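The small nuclear RNAs in the same table were chosen after their values were seen. Of 9 listed snRNA genes, 1 had the higher sum at day 12, against 58.5% of all genes, and 8 the lower. At an unadjusted p under 0.05 there were 4, all lower, against 22.5% of all genes in either direction and 9.07% lower. U11 of the minor spliceosome, which removes a rare class of introns, was at 61.0 at day 12 and 141 at day 2 (unadjusted p = 0.0051 in the authors' deposited table). U12 of the same spliceosome was at 155 and 213 (unadjusted p = 0.00092 in the authors' deposited table). The transcript of 7SK, which restrains transcription elongation and has no part in splicing, was at 4743 and 7064 (unadjusted p = 0.00073 in the authors' deposited table), and its adjusted p of 0.0890 was the lowest of these genes. The U2 copies snRNA:U2:34ABb and snRNA:U2:14B were at 14.4 and 7.13 at day 12, against 19.8 and 13.2 at day 2; such near-identical copies share reads, so single values are uncertain. These RNAs are shorter than the messages and need not be captured in the same way, and the part of this in the values was not tested.

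Relatives of the LSm genes that act outside splicing differed among themselves. Lsm11, of the U7 snRNP that processes histone messages, was at 11.2 at day 12 and 20.2 at day 2 (p = 0.0035 unadjusted and 0.134 adjusted, by the authors' deposited table). Its partner Lsm10 was at 16.5 and 17.6. Lsm12, a translation regulator that works with Ataxin-2, was at 174 at day 12 and 159 at day 2 (unadjusted p = 0.0388 there).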
